A study of Mus musculus with 75 samples.

Results

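The livers labelled low risk TBT were compared with the livers labelled Vehicle at 5 months of age. Its members are 24 of the 75 liver RNA libraries of the series: every 5-month library with one of these risk group labels, 16 low-risk and 8 vehicle. All 24 came from male mice of strain C57Bl/6. The dams of the low-risk mice drank water with tributyltin (TBT) up to the weaning of the pups, at a daily 0.5 mg for each kg of body weight (3.07 µM), and the vehicle mice are labelled Vehicle for exposure and for risk. The 10 livers of 5 months labelled high risk TBT, with the same exposure, shared the fit and lent it their spread, but entered no contrast. The labels do not give how risk was assigned at 5 months, so a choice of the low-risk livers on these expression values cannot be told apart from a difference between the groups. Litter, feeding state and the hour at which livers were taken are not in the labels either. No label says whether the libraries of a group came from separate litters, so the p-values measure the spread between these libraries.

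TBT is an organotin compound that binds and activates the retinoid X receptors (RXRs) and, through their shared heterodimer, PPARG, the regulator of fat cell formation and lipid storage. The liver also carries a circadian clock, in which BMAL1 (gene Arntl) with CLOCK or NPAS2 drives the Per, Cry and REV-ERB (Nr1d1, Nr1d2) genes through E-boxes, and their products turn this drive down again. REV-ERBs repress Arntl, Npas2 and Nfil3 through elements called ROREs, while DBP, TEF and HLF activate genes with D-boxes that NFIL3 represses. The transcripts of this loop and of its outputs, among them enzymes of bile acid and lipid metabolism, rise and fall over the day.

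Depth ran from 2.83 to 34.1 M counts per library in vehicles and from 7.72 to 45.1 M in low-risk livers. Sequencing batch 1 held 7 vehicle and 6 low-risk libraries, and batch 2 held 1 and 10. Vehicle 9 stood apart with 2.83 M counts and 38206 genes detected, against 19323 to 24660 in the other vehicles, and low-risk 16 stood apart with 11.2% mitochondrial counts. Hepatocyte markers were high in every library, with 17 of 18 tested, whereas 1 of 14 acinar and 1 of 10 muscle markers had enough counts to be tested. Even so, acinar markers summed to 239 CPM in low-risk 2, against 5.68 to 57.2 CPM in the other 23 libraries, and muscle markers to 39.5 CPM in vehicle 9, against 0.332 to 8.12 CPM in the others. Low-risk 2 held 1856 CPM (counts relative to the library total, scaled by TMM) summed over 20 intestinal epithelial genes, a list added after the values were seen, against 145 to 255 CPM in the other 23 libraries. Low-risk 24 held 99.7 CPM of Xist, the RNA of the inactive X chromosome, beside 279.5 CPM of Y-linked genes, while Xist stayed at or under 3.98 CPM in every other 5-month library. As these are bulk samples, fewer cells of a type and less RNA per cell cannot be told apart.

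At 5 months no gene passed the adjusted threshold between low-risk and vehicle livers. Among the genes with the smallest unadjusted p were lower Mtnr1a, which encodes a melatonin receptor, and higher Slc16a12, which encodes a transporter of the monocarboxylate family. Clock-driven genes (Per2, Per3, Tef, Dbp, Usp2, Wee1) and Cyp7a1, the rate-limiting enzyme of bile acid synthesis, had higher mean levels in low-risk livers, with much overlap between the groups. Genes that had the largest lower fold changes, such as Gpnmb, Ly6d and Scn2a, were high in 2 or 3 single vehicle livers and low in the others.

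With edgeR's quasi-likelihood test, 0 of 14773 genes (0%) had a Benjamini-Hochberg adjusted p under 0.05. At an unadjusted p under 0.05 stood 934 genes (6.32%), of which 395 (2.67%) were higher and 539 (3.65%) were lower in low-risk livers. No gene separated the 16 low-risk from the 8 vehicle libraries without overlap (0%). Within batch 1, 17 genes (0.115%) were higher in all 6 low-risk than in all 7 vehicle libraries and 12 (0.0812%) were lower. DESeq2 called 78 of 20882 genes (0.374%), 8 higher (0.0383%) and 70 lower (0.335%), and limma-voom with sample quality weights called 40, of which 19 were higher and 21 lower. Without vehicle 9, low-risk 16 and the high-risk libraries 10 and 15, which deviate in depth, genes detected or mitochondrial share, edgeR called 1 gene.

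Mtnr1a (chromosome 8, 45069137 to 45088506, GRCm38) stood at 5.44, 8.37 and 22.9 CPM (lowest, median, highest) in vehicle livers and at 1.12, 3.04 and 5.67 CPM in low-risk livers. Of the 16 low-risk livers, 15 lay under the lowest vehicle and all 16 under the vehicle median. Group means were 10.3 ± 5.86 CPM (SD, n = 8) and 3.07 ± 1.404 CPM (SD, n = 16). Low-risk minus vehicle was, in log2 units, -1.62 (SE 0.31, edgeR adjusted p = 0.0636), and -1.52 without the deviating libraries (adjusted p = 0.193). DESeq2 gave -1.64 with an adjusted p of 0.000901. High-risk livers of the same age ran from 5.52 to 23.7 CPM. At 10 months, the same contrast gave -0.10 (unadjusted p = 0.651 in edgeR) in a fit of that age alone.

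Slc16a12 (chromosome 19, 34668403 to 34747289) ran from 33.7 over a median of 48.3 to 62.2 CPM in vehicles and from 49.0 over 80.3 to 117 CPM in low-risk livers. Here 14 of 16 low-risk livers lay above the highest vehicle and all 16 above the vehicle median, so the ranges met at 2 low-risk livers only. The fitted log2 difference was 0.74 (SE 0.14, edgeR adjusted p = 0.0636) and DESeq2 gave 0.73 (adjusted p = 0.000977). It was called in 8 of the 37 alternative fits, and no gene was called in more. The contrast at 10 months was -0.24, and the difference between the ages had an unadjusted p of 4.09e-05 and an edgeR adjusted p of 0.330.

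Hpgd, which encodes the dehydrogenase that inactivates prostaglandins, ran from 25.8 over 46.5 to 89.0 CPM in vehicles and from 58.0 over 96.5 to 118 CPM in low-risk livers. Within batch 1 all 6 low-risk livers (64.6 to 110 CPM) lay above all 7 vehicles (25.8 to 59.3 CPM), while the vehicle of batch 2 reached 89.0 CPM. On the log2 scale the difference was 0.76 (SE 0.19, edgeR adjusted p = 0.362). Chac2, which encodes a glutathione-degrading enzyme, had a median of 13 CPM in vehicles and 19.6 CPM in low-risk livers, with 14 of 16 low-risk livers above the highest vehicle. Its log2 fold change of 0.52 had an adjusted p of 0.362 in edgeR and 0.0243 in DESeq2. Chac2 overlaps Asb3 on the opposite strand, and whether strand was used in counting is not given in the sources used here, so reads of the pair may be mixed. Ngef, which encodes a guanine nucleotide exchange factor, had medians of 12.1 and 24.7 CPM and a log2 fold change of 0.79 (edgeR adjusted p = 0.362).

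Lower genes with small unadjusted p included Dhrs9, which encodes a retinol dehydrogenase. It ran from 5.76 over 11.8 to 25.4 CPM in vehicles and from 1.12 over 6.07 to 9.77 CPM in low-risk livers. All 16 low-risk livers were under the vehicle median and 8 were under the lowest vehicle, vehicle 9. Its log2 fold change was -1.31 (SE 0.31, edgeR adjusted p = 0.362). Lrfn3, which encodes an adhesion protein, had medians of 20.1 and 10.6 CPM and a log2 fold change of -0.98. Rnf144a, which encodes a ubiquitin ligase, had medians of 14.5 and 8.30 CPM and a log2 fold change of -0.93, with 8 of 16 low-risk livers under the lowest vehicle. Insig2, which encodes a protein that holds back cholesterol synthesis in the endoplasmic reticulum, had medians of 428 and 278 CPM and a log2 fold change of -0.92. For Lrfn3, Rnf144a and Insig2 the edgeR adjusted p ran from 0.362 to 0.394, and limma-voom with quality weights called all 3.

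The only gene called without the deviating libraries was Gm45909 (log2 fold change 5.52, edgeR adjusted p = 0.0079), a predicted transcript on chromosome 8 (93190328 to 93191358) that lies inside Ces1d on the same strand. It had 0 to 3 counts in each vehicle and up to 178 counts in low-risk livers, with a median of 1.09 CPM there, so the fitted fold depends on the prior count. Its 4.46 in all 24 libraries had an adjusted p of 0.0677. As its reads may come from Ces1d, which encodes a carboxylesterase, it is uncertain. Ces1d itself ran from 167 to 411 CPM in vehicles and from 153 to 1036 CPM in low-risk livers.

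**Figure D1:**
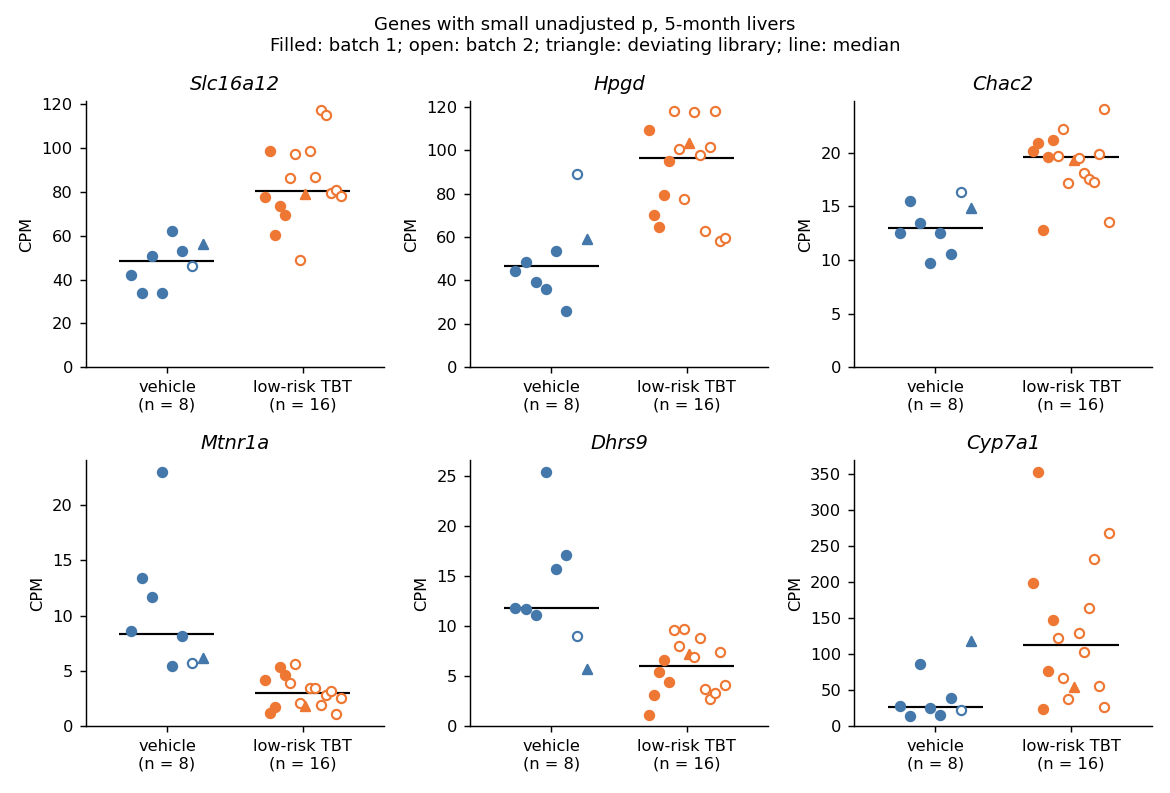
CPM of 6 genes in each vehicle (n = 8) and low-risk (n = 16) liver of 5 months, on linear axes from 0, with a line at the group median. Slc16a12 had 14 of 16 low-risk livers above the highest vehicle and Mtnr1a had 15 of 16 under the lowest, while Cyp7a1 overlapped widely.

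Promoters are shown for genes of the clock, whose levels are given after them, and for leading genes. RefSeq promoters (GRCm38.p6, 250 bases before the start) were matched for 29 of 36 genes searched, with 35 promoters. Motifs were searched on both strands: the E-box CACGTG, the D-box TTATGTAA, the RORE TAGGTCA, and the direct repeat 1 element bound by RXR heterodimers, whose half-site can overlap a RORE. Of 32851 promoters, 6.02% held an E-box, 0.819% a D-box, 2.23% a RORE and 0.0335% the direct repeat. Among the 29 genes, 8 held an E-box, 3 a D-box, 3 a RORE and 0 the direct repeat. The genes were picked by name, many of them from the clock, and a gene counted if any of its promoters matched. These counts are therefore no test against the shares over all promoters. The stretches with matches are shown for 4 clock-driven genes and for Slc16a12 and Mtnr1a, the genes with the smallest p. Capitals mark the motif letters.

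Per3 (2 D-boxes, chr4:151044776-151044910, minus strand): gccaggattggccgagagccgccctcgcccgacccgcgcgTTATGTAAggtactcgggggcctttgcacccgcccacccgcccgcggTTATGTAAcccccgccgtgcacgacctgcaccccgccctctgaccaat
Ciart (3 E-boxes, chr3:95882229-95882384, minus strand): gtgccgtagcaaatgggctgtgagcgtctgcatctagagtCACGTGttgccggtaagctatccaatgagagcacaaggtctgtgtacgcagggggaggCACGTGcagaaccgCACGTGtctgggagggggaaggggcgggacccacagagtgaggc
Tef (E-box, present at both of its starts and shown for the upstream start, chr15:81802506-81802591, plus strand): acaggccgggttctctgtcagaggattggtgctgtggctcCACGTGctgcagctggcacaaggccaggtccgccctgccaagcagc
Coq10b (D-box and E-box, chr1:55052568-55052737, plus strand): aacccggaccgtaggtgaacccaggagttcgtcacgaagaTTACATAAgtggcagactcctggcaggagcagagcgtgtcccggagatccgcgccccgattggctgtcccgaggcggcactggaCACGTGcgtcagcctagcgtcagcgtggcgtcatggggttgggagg
Slc16a12 (E-box and D-box, chr19:34747357-34747578, minus strand): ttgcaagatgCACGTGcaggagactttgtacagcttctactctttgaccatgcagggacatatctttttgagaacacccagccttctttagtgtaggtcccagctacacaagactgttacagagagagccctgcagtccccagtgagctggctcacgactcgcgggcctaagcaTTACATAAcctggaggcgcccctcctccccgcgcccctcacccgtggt
Mtnr1a (E-box, chr8:45068860-45068945, plus strand): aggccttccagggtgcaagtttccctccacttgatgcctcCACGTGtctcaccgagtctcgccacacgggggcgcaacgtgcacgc

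Slc16a12 was the only gene without a place in the clock lists, among those searched, whose window held an E-box and a D-box. Windows of Nfil3, Dhrs9 and Plin2 held a RORE. No match was found in the windows of Dbp, Arntl, Usp2, Nr1d1, Nr1d2 or Hlf, which says only that these letters are not within those 250 bases. The same held for the leading genes Hpgd, Chac2 and Ngef, and for Clock, Npas2, Cry2, Rora, Nampt, Noct, Cidec and Gpnmb. A match is a description of letters and not a measured binding site.

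The activators of the loop came lower in part of the low-risk livers. Arntl, which encodes BMAL1, ran from 12.6 over 25.3 to 44.4 CPM in vehicles and from 1.501 over 15.8 to 47.0 CPM in low-risk livers. Within batch 1, low-risk 2, 3, 5, 6 and 7 stood at 3.65, 3.64, 1.501, 7.82 and 7.59 CPM, all under the lowest vehicle, while low-risk 16, the library with 11.2% mitochondrial counts, stood at 47.0 CPM above every vehicle. In batch 2 the 10 low-risk livers spread from 5.03 to 41.8 CPM around the 34.5 CPM of its vehicle. Low-risk minus vehicle was, in log2 units, -0.79 (SE 0.50, edgeR adjusted p = 0.862), and -1.47 without the deviating libraries (adjusted p = 0.491). In batch 1 without the deviating libraries it was -2.32 (adjusted p = 0.0770). In batch 1 with the deviating libraries kept, limma-voom with quality weights called it (-2.03, adjusted p = 0.0454). These 2 fits of batch 1 were added after the data were seen.

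Npas2, which encodes the partner that can replace CLOCK, ran from 1.395 to 15.2 CPM in vehicles and from 0.0846 to 25.97 CPM in low-risk livers. The fitted log2 difference was -0.02 and moved to -1.13 without low-risk 16, which held the highest value. Clock had medians of 109 and 99.1 CPM and a log2 fold change of -0.12. Nfil3, which encodes the D-box repressor, had medians of 42.2 and 30.1 CPM. It stood at 17.2 to 28.2 CPM in the same 5 livers of batch 1 and at 68.3 CPM in low-risk 16. On the log2 scale the difference was -0.38 (edgeR adjusted p = 0.902).

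The D-box activators went the other way. Dbp ran from 1.70 over 4.04 to 16.7 CPM in vehicles and from 0.4657 over 32.0 to 95.7 CPM in low-risk livers. The 5 batch 1 livers low in Arntl held 89.97, 63.1, 95.7, 39.8 and 52.7 CPM, in the order of their numbers, each above every vehicle, while low-risk 16 held 0.4657 CPM. In batch 2 low-risk 20, 21, 23 and 26 held 27.3 to 55.7 CPM and the other 6 held 0.878 to 8.98 CPM, so the low-risk group spanned a wider range than the vehicles at either end. Its log2 fold change was 2.53 (SE 0.90, edgeR adjusted p = 0.589). It was 3.37 in batch 1 without the deviating libraries (edgeR adjusted p = 0.0770), a fit added after the data were seen. Tef ran from 20.1 over 39.0 to 75.4 CPM in vehicles and from 24.6 over 104 to 181 CPM in low-risk livers, with 9 of 16 above the highest vehicle. Low-risk minus vehicle was, in log2 units, 1.25 (SE 0.41, edgeR adjusted p = 0.550). Hlf had medians of 31.8 and 36.3 CPM and a log2 fold change of 0.51.

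**Figure D2:**
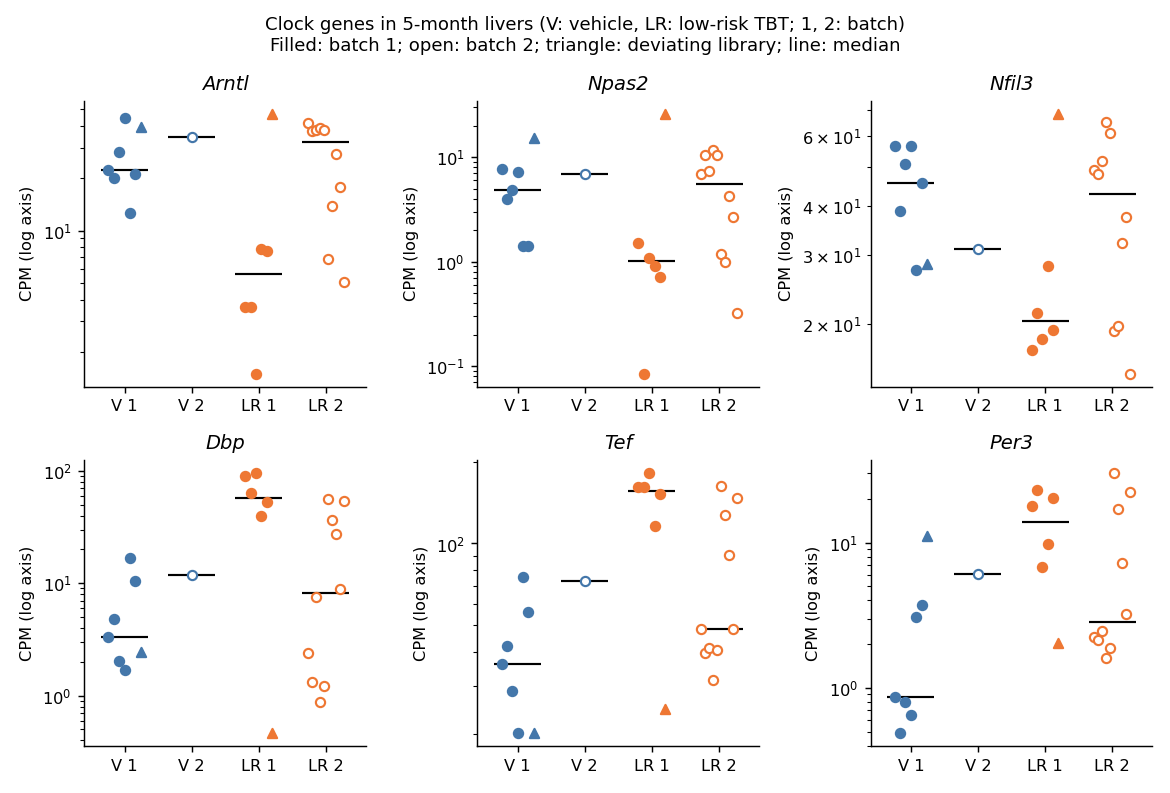
CPM on log axes of 6 clock genes by group and sequencing batch in 5-month livers, with a line at the median of each column. In batch 1, all low-risk livers but number 16 lay under the vehicles for Arntl and above them for Dbp and Tef, and in batch 2 the low-risk livers spread over the range of both.

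Among the repressors of the loop, Per2 ran from 2.76 over 5.65 to 11.1 CPM in vehicles and from 4.31 over 12.1 to 34.7 CPM in low-risk livers. In these, 8 of 16 lay above the highest vehicle, and 4 lay under the vehicle median. The fitted log2 difference was 1.22 (SE 0.33, edgeR adjusted p = 0.394). Per3, whose 2 D-boxes are shown above, ran from 0.489 over 1.97 to 11.1 CPM and from 1.60 over 7.005 to 30.1 CPM. On the log2 scale the difference was 2.01 (SE 0.65, edgeR adjusted p = 0.549), and limma-voom with quality weights called it (3.30, adjusted p = 0.0343) together with Per2 (1.30, adjusted p = 0.0454). Per3 and Camta1 overlap on the same strand, so part of its reads is uncertain. Nr1d2 had medians of 58.3 and 98.2 CPM and a log2 fold change of 0.63, and Cry2 had 20.2 and 28.8 CPM and 0.42. Per1, Nr1d1, Ciart and Cry1 had log2 fold changes of 0.83, 0.43, 1.41 and 0.05 with unadjusted p above 0.05.

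Of the 18 loop genes tested, 4 were higher and 0 lower at an unadjusted p under 0.05, and their median log2 fold change was 0.29. Of the 19 output genes, 8 were higher and 2 lower, with a median of 0.38. Over all 14773 genes the median was 0.01, with 2.67% higher and 3.65% lower at that threshold. The same shares are the background of the list counts at that threshold given further below. A log2 fold change above 0 was found in 7688 of the 14773 genes (52.0%), the background of the counts of signs below. Leaving out any single library kept the loop median between 0.19 and 0.40 and the output median between 0.21 and 0.43. These lists were written with earlier results of the data known, and their counts are a description.

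Output genes with higher levels included Usp2, which encodes a deubiquitinase, Wee1, which encodes a mitotic kinase, and Coq10b, a coenzyme Q carrier. Usp2 ran from 1.12 over 2.91 to 7.82 CPM in vehicles and from 1.54 over 4.01 to 32.8 CPM in low-risk livers, and 6 of 16 lay above the highest vehicle. Its log2 fold change was 1.83 (SE 0.50, edgeR adjusted p = 0.394). Wee1 had medians of 2.49 and 3.91 CPM and a log2 fold change of 1.36, with low-risk 2 highest at 17.6 CPM. Coq10b had medians of 14.5 and 21.2 CPM and a log2 fold change of 0.75. The lower output genes at that threshold were Tars, which encodes a tRNA ligase (-0.45), and Mthfd1l, a mitochondrial folate enzyme (-1.68).

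**Figure D3:**
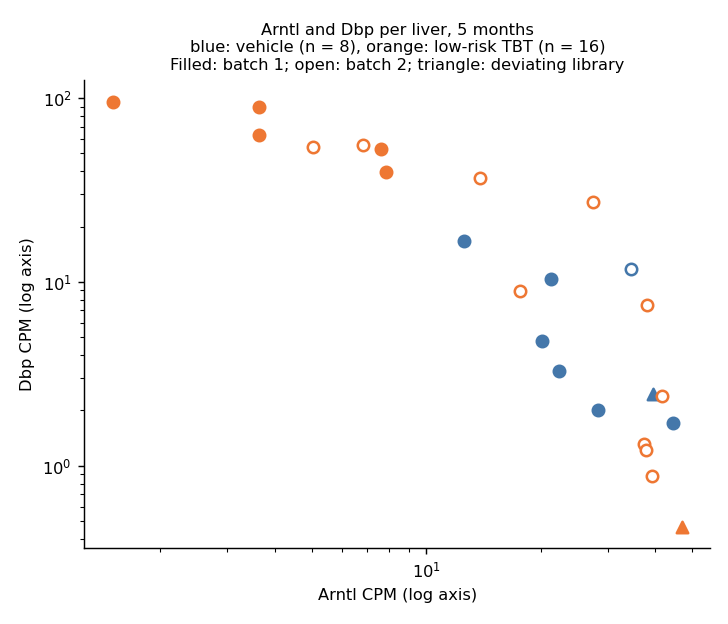
Dbp against Arntl CPM on log axes, with 1 point per 5-month liver (8 vehicle, 16 low-risk). The livers of batch 1 with 1.501 to 7.82 CPM of Arntl held 39.8 to 95.7 CPM of Dbp, and low-risk 16 held the lowest Dbp and the highest Arntl.

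At 10 months 6 vehicle and 5 low-risk livers were compared, and the vehicle liver labelled Vehicle (tumor) was left out of every fit. Of 14709 genes, 0 were called by edgeR in a fit of that age alone (0%), and 1127 (7.66%) had an unadjusted p under 0.05. Dbp ran from 1.21 over 2.54 to 11.7 CPM in these vehicles and from 3.51 over 6.13 to 54.8 CPM in these low-risk livers. The groups overlapped, and the log2 fold change was 2.68 (unadjusted p = 0.0166). Nr1d2 was 0.69 (unadjusted p = 0.0207), Nr1d1 1.02 (unadjusted p = 0.0113) and Nfil3 -0.70 (unadjusted p = 0.0299). Mean CPM was higher in low-risk livers for Per3 (6.67 against 3.98) and Tef (86.5 against 64.8). It was nearly level for Per2 (7.10 against 7.06) and Hlf (26.3 against 26.6), and lower for Cyp7a1 (109 against 149) and Hpgd (72.6 against 81.3). With both ages in 1 fit, the 10-month list medians were 0.12 (loop) and 0.07 (outputs), against 0.0045 over all genes. In the test of the difference between the ages, 0 of 16138 genes were called by edgeR (0%), 597 (3.7%) had an unadjusted p under 0.05, and DESeq2 called 4. In that joint fit of both ages, 101 genes (0.626%) had an unadjusted p under 0.05 for the 10-month contrast. Of the 934 genes with an unadjusted p under 0.05 at 5 months, 388 (41.5%) had the same sign at 10 months in the joint fit, against 43.0% of all genes. With the same sign, 7 of them (0.749%) also had an unadjusted p under 0.05 at 10 months. The 0.626% counts genes of either sign, so these shares are unlike measures and were not compared.

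In bile acid synthesis and transport, Cyp7a1 stood at 14.8, 27.2 and 118 CPM in vehicles and at 24.6, 112 and 352 CPM in low-risk livers (lowest, median, highest). Of the low-risk livers, 15 of 16 lay above the vehicle median and 8 above the highest vehicle, vehicle 9. Low-risk minus vehicle was, in log2 units, 1.85 (SE 0.53, edgeR adjusted p = 0.394), 2.33 without the deviating libraries (adjusted p = 0.218), and limma-voom with quality weights called it (2.16, adjusted p = 0.0343). Slco1b2, which encodes a sinusoidal uptake transporter of bile acids, had medians of 1219 and 1685 CPM and a log2 fold change of 0.52. These were the 2 of 17 list members with an unadjusted p under 0.05. The list had a median of 0.16 (0.10 without vehicle 6), and 14 members (82.4%) were above 0, against 52.0% of all genes.

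For cholesterol synthesis, 22 of 24 members (91.7%) were above 0, against 52.0% of all genes. The median was 0.16, but only Stard4 had an unadjusted p under 0.05. Stard4, which encodes a carrier of cholesterol between membranes, ran from 23.2 over 74.3 to 109 CPM in vehicles and from 88.4 over 115 to 148 CPM in low-risk livers. All 16 low-risk livers lay above the vehicle median and 11 above the highest vehicle. The fitted log2 difference was 0.71 (SE 0.19, edgeR adjusted p = 0.394). The median of the list moved to 0.04 without vehicle 4 and to 0.31 without vehicle 5. In lipogenesis, Dgat2, which encodes the last enzyme of triglyceride synthesis, was the 1 of 21 members at that threshold. Its medians were 386 and 567 CPM, with 14 of 16 low-risk livers above the highest vehicle, and its log2 fold change was 0.49 (edgeR adjusted p = 0.555).

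None of the RXR genes, Pparg and Ppara had an unadjusted p under 0.05. Transcript levels do not measure whether a receptor is bound or active. Rxra had medians of 538 and 482 CPM and a fitted log2 difference of -0.06 (SE 0.16), Rxrb had -0.11 and Rxrg -0.02. Pparg had medians of 4.35 and 6.21 CPM and a fitted log2 difference of 0.41 (SE 0.29, edgeR adjusted p = 0.881), and Ppara had 0.16. Of 19 RXR and PPARG genes tested, 0 were higher and 3 lower at an unadjusted p under 0.05, with a median of -0.11 (-0.31 without low-risk 5).

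The 3 lower genes were Cidec and Plin2, which encode lipid droplet proteins, and Lpl, lipoprotein lipase. Cidec ran from 1.53 over 20.02 to 25.4 CPM in vehicles and from 1.46 over 3.94 to 13.1 CPM in low-risk livers, and all 16 lay under the vehicle median. Its vehicles fell into 5 livers at 18.9 to 25.4 CPM and 3 at 1.53 to 2.98 CPM. On the log2 scale the difference was -1.27 (SE 0.50, edgeR adjusted p = 0.674). Plin2, with a RORE in its promoter window, ran from 191 over 1084 to 2353 CPM and from 326 over 570.2 to 1097 CPM, and had a fitted log2 difference of -0.77 (SE 0.31, edgeR adjusted p = 0.674). Lpl had a log2 fold change of -0.57, although its median was higher in low-risk livers (33.0 against 23.3 CPM), and the fit carries a term for sequencing batch. Among 27 PPARA targets, Pdk4 (-1.03), which encodes the kinase that shuts off pyruvate oxidation, and Fgf21 (-0.95), a fasting hormone, were lower at an unadjusted p under 0.05, and the median was 0.02.

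Several lower genes were high in single vehicle livers. Gpnmb, which encodes a glycoprotein of lipid-laden macrophages and of tumors, stood at 28.7, 93.5 and 6.17 CPM in vehicles 4, 6 and 9 and at 0.143 to 0.691 CPM in the other 5. Low-risk livers ran from 0.239 over 0.947 to 3.78 CPM, so that their median lay above the vehicle median of 0.615 CPM. Its log2 fold change was -3.20 (SE 0.88, edgeR adjusted p = 0.394), and -1.63 without vehicle 6. It was 0.07 by limma-voom with quality weights, which gave vehicle 9 the lowest weight of the vehicles, 0.255, and vehicle 6 0.670. High-risk livers ran from 7.64 to 60.3 CPM.

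Ly6d, which encodes a surface protein of early B cells and of epithelia, stood at 56.4 and 92.8 CPM in vehicles 4 and 6 and at 0.862 to 7.66 CPM in the other 6. Low-risk livers ran from 0.663 over 1.54 to 10.8 CPM. Low-risk minus vehicle was, in log2 units, -3.08 (SE 0.75, edgeR adjusted p = 0.362), and -2.22 without vehicle 6. Scn2a, which encodes a neuronal sodium channel, stood at 2.53, 3.00 and 5.76 CPM in vehicles 4, 6 and 9, and the other vehicles and the low-risk livers held 0 to 4 counts each. Frmd5 stood at 5.71, 1.09 and 10.7 CPM in these 3 vehicles and at 0 to 3 counts in the others. Such low counts give no firm fold for Scn2a and Frmd5. Slc7a11, the cystine importer, stood at 3.73, 3.67 and 4.11 CPM in the 3 vehicles and at 0 to 0.702 CPM in low-risk livers. In the 10 high-risk livers, Ly6d held 322 to 4033 counts, Scn2a 18 to 190, Frmd5 10 to 158 and Slc7a11 6 to 581.

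Vehicles 4, 6 and 9 were singled out after their values were seen. Genes more than 2-fold above every low-risk library numbered 148 in vehicle 4, 157 in vehicle 6 and 1339 in vehicle 9, and 1 to 5 in each of the other 5 vehicles. Vehicles 4 and 6 shared 71 of these genes, 48.0% and 45.2% of their sets, and all 3 shared 24. Of the 70 genes that DESeq2 called lower, vehicle 9 was the highest library in 48, vehicle 4 in 9 and vehicle 6 in 9. Vehicles 4 and 6 had 21.9 and 19.5 M counts and 2.94% and 1.86% mitochondrial counts, within the range of the other libraries or at its end. Their summed pericentral hepatocyte markers came to 3678 and 4185 CPM, and those of vehicle 9 to 6574 CPM, against 11632 to 14222 CPM in the other vehicles, 9378 to 17964 CPM in low-risk livers and 2032 to 8782 CPM in high-risk livers. Whether these markers had a part in the other differences of vehicles 4 and 6 was not tested. The part of depth in the values of vehicle 9 was not tested.

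**Figure D4:**
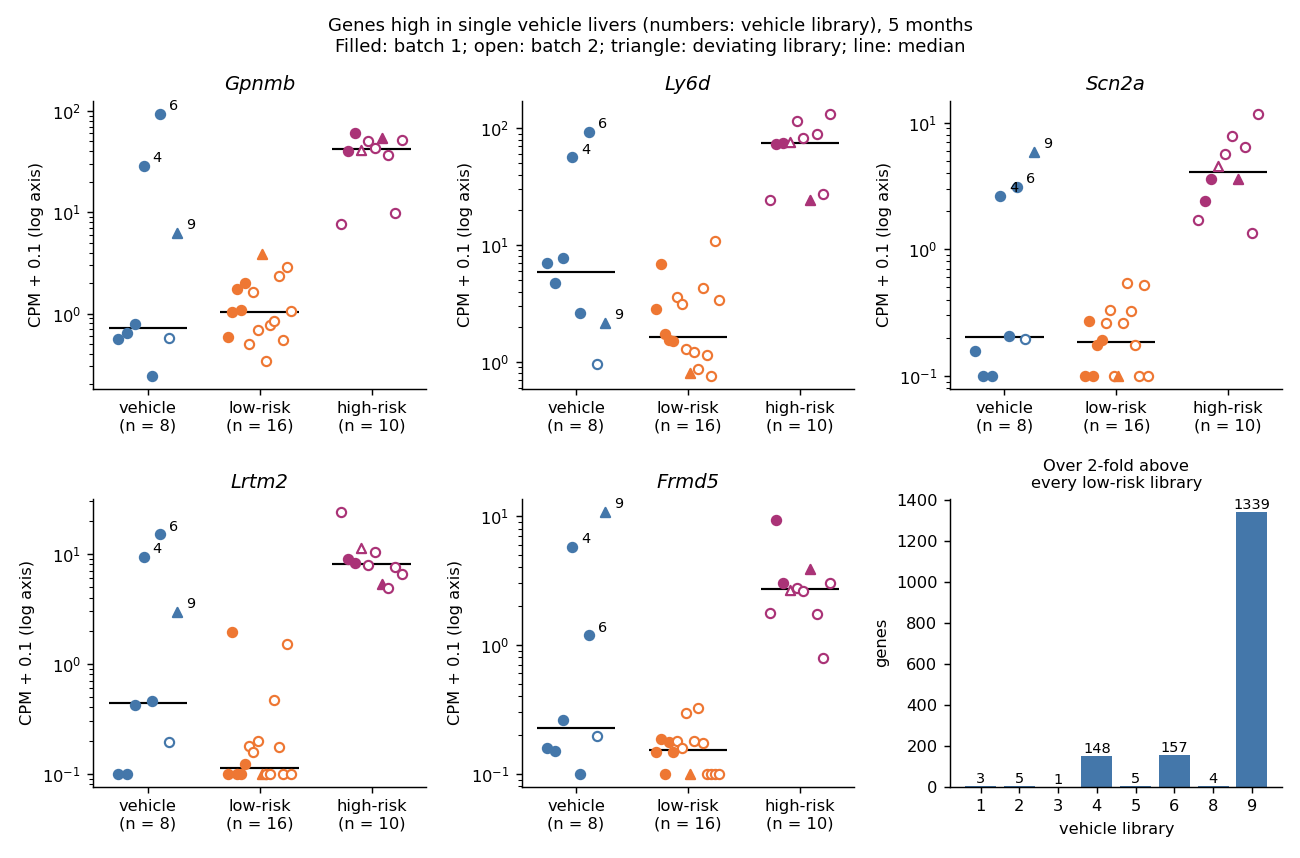
CPM + 0.1 on log axes of 5 genes in vehicle, low-risk and high-risk livers of 5 months, with the numbers of vehicles 4, 6 and 9, and the number of genes over 2-fold above every low-risk library in each vehicle. Gpnmb was at 28.7, 93.5 and 6.17 CPM in these vehicles and at most 3.78 CPM in low-risk livers.

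The median over proliferation genes was -0.65, with 27 of 28 under 0 and 5 lower and 0 higher at an unadjusted p under 0.05. Over all 14773 genes, 7085 were under 0. Kif20a, which encodes a mitotic kinesin, had medians of 1.497 and 1.23 CPM, and vehicle 4 reached 11.97 CPM. The fitted log2 difference was -1.53 (SE 0.50, edgeR adjusted p = 0.555), and -0.57 without vehicle 4. Cdc20, an activator of the anaphase-promoting complex, had medians of 0.926 and 0.947 CPM, and vehicle 4 reached 15.5 CPM. Its -1.88 became -0.51 without vehicle 4. The median of the list became -0.08 without vehicle 4 and -0.14 by limma-voom with quality weights.

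Fetal and tumor-associated genes had a median of -0.46, with 4 of 18 lower and 1 higher at an unadjusted p under 0.05, and the median was -0.19 without vehicle 6 and -0.82 without low-risk 2. The 4 lower were Ly6d, Scn2a, Gpnmb and Slc7a11. The higher one, Epcam, and Krt19 among cholangiocyte markers, both epithelial genes, rested on low-risk 2, the liver with 1856 CPM of intestinal genes. Epcam stood at 95.8 CPM there and at 0.682 to 3.37 CPM in the other low-risk livers, and its log2 fold change of 2.04 became -0.42 without low-risk 2. Krt19 stood at 78.3 CPM there, and its 2.39 became -0.48. Their part in other results of low-risk 2 was not tested.

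NRF2 targets, the genes of the oxidant response, had a median of -0.39 with 4 of 19 lower and 0 higher at that threshold. The median was -0.15 without vehicle 6 and -0.19 by limma-voom with quality weights. Besides Slc7a11, these were Gstm3, Gsta2 and Cbr3. Gstm3, which encodes a glutathione transferase, had medians of 22.4 and 15.8 CPM and its highest value, 161 CPM, in vehicle 4. On the log2 scale the difference was -1.41 (SE 0.49, edgeR adjusted p = 0.586), and -0.74 without vehicle 4. Gstm3 and Gsta2 (-0.89) have near-identical relatives, so their counts are uncertain. Integrated stress response genes had a median of -0.20 with 3 of 18 lower, among them Ddit4 (-0.90), which encodes a brake on mTORC1, and Mthfd2 (-0.95, and -0.58 without vehicle 4). Leaving out 1 library moved this median to -0.0046 (vehicle 6) or -0.45 (low-risk 2). All 17 unfolded protein response genes were above 0, against 52.0% of all genes. Their median of 0.18 became 0.01 without the deviating libraries.

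Immediate early genes had a median of -0.20 with 2 of 17 lower at an unadjusted p under 0.05, but the median was -0.0096 without vehicle 6 and -0.0016 by limma-voom with quality weights. Btg2, an inhibitor of proliferation, ran from 6.17 over 31.5 to 114 CPM in vehicles and from 7.52 over 14.5 to 35.9 CPM in low-risk livers, and 15 of 16 low-risk livers lay under the vehicle median. Its log2 fold change was -1.53 (SE 0.39, edgeR adjusted p = 0.362). Igfbp1, the hepatic binding protein of insulin-like growth factors that falls after feeding, ran from 58.0 over 142 to 556 CPM and from 37.6 over 89.6 to 314 CPM. Low-risk minus vehicle was, in log2 units, -1.39 (SE 0.44, edgeR adjusted p = 0.548), and vehicles 4 and 6 were the highest libraries (371 and 556 CPM). Ghr, the growth hormone receptor, had medians of 558 and 695 CPM and a log2 fold change of 0.40. Of 16 genes of this axis, 2 were higher and 2 lower at that threshold, with a median of 0.01.

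Of 25 male-biased genes, 1 was higher at an unadjusted p under 0.05, Hsd3b2 (0.81), a steroid dehydrogenase with close relatives, and the median was 0.10 (-0.06 without vehicle 6). Over all 14773 genes, 2.67% were higher and 3.65% lower at that threshold, so this count is near background. Of 17 female-biased genes tested, 1 was higher (Acot3, 1.94, with close relatives and an overlapping gene) and 1 lower (Slc22a26, -2.73). Their median was -0.49, -1.04 without low-risk 24, the liver with Xist, and 0.53 without the batch covariate. Slc22a26, an organic anion transporter, stood at 26.4 CPM in vehicle 6 and 12.8 CPM in low-risk 24 and had medians of 0.646 and 0.716 CPM. Without vehicle 6 its difference was -0.07 (unadjusted p = 0.927 in edgeR).

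Among cell type markers, 17 of 20 pericentral hepatocyte genes were above 0 with a median of 0.26, and 14 of 16 periportal genes were under 0 with a median of -0.30. Of all 14773 genes, 7688 (52.0%) were above 0 and 7085 under 0. At an unadjusted p under 0.05, Rnf43 (0.61), a Wnt target that limits Wnt receptors, and Lect2 (0.32) were the 2 higher pericentral genes, and Hal (-0.42), which encodes histidase, was the 1 lower periportal gene. The summed pericentral markers were low in vehicles 4, 6 and 9 only, as given above, while the other 5 vehicles lay within the low-risk range, and the group medians were 11676 and 12038 CPM. Leaving out any single library kept the medians of the log2 differences between 0.13 (without vehicle 4) and 0.31 and between -0.38 and -0.23. Hepatocyte markers as a whole had a median of 0.02.

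Of 22 Kupffer cell and macrophage genes, 3 were lower and 0 higher at that threshold, with a median of -0.19 (-0.04 without vehicle 6). They were Gpnmb, Trem2 and Cx3cr1. Over all 14773 genes, 3.65% were lower and 2.67% higher at that threshold. Trem2, a lipid receptor of macrophages, stood at 8.66, 9.72 and 3.70 CPM in vehicles 4, 6 and 9, at 0.215 to 1.34 CPM in the other vehicles and at 0 to 2.81 CPM in low-risk livers. The fitted log2 difference was -1.85 (SE 0.65, edgeR adjusted p = 0.576). The summed level of the macrophage list ran from 447 to 1552 CPM in vehicles and from 585 to 1279 CPM in low-risk livers. Interferon-stimulated genes had a median of -0.23 (-0.12 without vehicle 4) with 3 of 29 lower at an unadjusted p under 0.05, among them Oas1g (-1.45), which has near-identical relatives, and Mx1 (-0.73), an antiviral GTPase. Stellate cell genes had 2 of 19 lower, Timp1 (-1.96) and Pdgfrb (-0.54), with a median of -0.19 (-0.07 without vehicle 4). Acute phase genes had a median of -0.41, with 1 of 22 lower, near the share over all genes. This was Socs3 (-0.97), whose highest value of 115 CPM was in vehicle 6 and which was -0.18 without that liver. The acute phase median ran from -0.84 without low-risk 3 to -0.15 without vehicle 3. Summed acute phase levels were highest in vehicles 3 and 6 (132267 and 120679 CPM) and in low-risk 3 and 24 (105236 and 97693 CPM). These livers held 930.4, 898, 1158 and 908 CPM of neutrophil markers in the same order, against group medians of 67.1 and 26.3 CPM. The marker list includes Lcn2, and its member Cxcr2 held 27, 37, 10 and 11 counts in these livers. The sum does not measure how many neutrophils a liver held. Vehicle 4 had 569.5 CPM of the markers beside an acute phase sum of 74280 CPM. The part of these markers in the acute phase values was not tested.

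**Figure D5:**
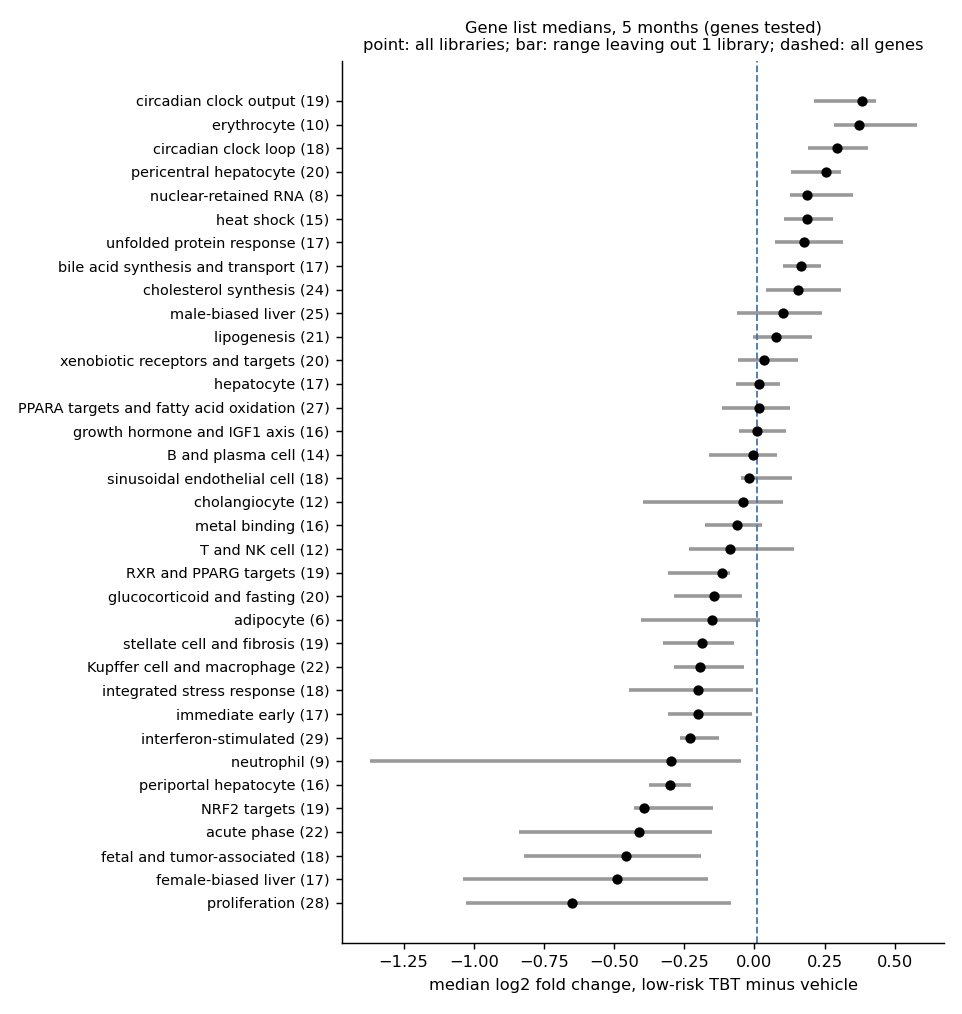
Median log2 fold change, low-risk minus vehicle, of the tested members of each gene list with over 1 tested gene (point), with the range when each of the 24 libraries is left out in turn (bar) and the median of all genes (dashed, 0.01). Clock output (0.38) lay near the top and proliferation (-0.65) at the bottom, with a bar that reached -0.08.

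The direction of the difference in spread depended on the deviating libraries and was not tested. Per gene, the SD of log2 CPM was larger in vehicles for 55.3% of 14773 genes, with median SDs of 0.449 in vehicles and 0.419 in low-risk livers. Without vehicle 9 and low-risk 16 it was larger in vehicles for 27.3%, with median SDs of 0.302 and 0.392. Within batch 1 these shares were 53.0% with all libraries and 35.5% without the deviating ones.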

How the data were processed

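The deposited table held counts of reads per gene for 55536 genes. Per the submitters' processing notes, Trim Galore, HISAT2, featureCounts and mm10 were used, and per the file name the deposited counts had been adjusted for batch with ComBat-seq, whose settings are not given in the sources used here. Such an adjustment can take up or add group differences where batch and group are unbalanced, as here. RNA was prepared with a stranded total RNA kit, per the labels' protocols.

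Groups came from the risk group label. edgeR 4.0.16 (R 4.3.3) was used with TMM scaling, filterByExpr and the robust quasi-likelihood test, with all 5-month groups in 1 fit, sequencing batch as a covariate and Benjamini-Hochberg adjustment at 0.05 over 14773 genes. CPM use TMM-scaled library sizes. The difference between ages was an interaction term over 16138 genes. Alternatives were DESeq2 1.42.0, limma 3.58.1 (voom with sample quality weights), RLE scaling, no filter, no batch covariate, batch 1 alone, protein-coding genes, a replicate block, and fits without single or deviating libraries (under 5 M counts, over 35000 genes or over 10% mitochondrial counts).

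On simulated counts for this comparison (14598 genes), 68 of 100 genes changed by 1 in log2 and 89 of 100 changed by 2 were recovered, with 10 false calls. In the interaction (15989 genes) 39 and 78 of 100 were recovered, with 3 false calls. The simulated counts varied around a single mean per gene, independently between genes. They held no batch effect, no library with a deviating profile and no shift shared by many genes of a liver. How many such changes would be recovered in the real livers was not tested.

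Genes were named by rule: the 10 higher and 10 lower protein-coding genes with the smallest p at a mean of 5 CPM or more, the 2 members of each of 37 lists with the smallest p, the clock loop, Dbp, Tef, Hlf, Nfil3, the RXR genes, Pparg, Ppara, and the 5 leading DESeq2 genes. Other genes were named after their values were seen. Members and lists were chosen with earlier results of these data known. Annotation was GENCODE M21. Python 3.11.15 drew the figures.

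Equal replicate numbers are not a stated pairing of the samples. The residual correlations of numbers 2, 3, 5, 6 and 8 were 0.042, 0.43, 0.24, -0.11 and -0.19. Among the 16 low-risk livers, the one with the same number ranked 8, 1, 1, 12 and 15. So few numbers cannot decide whether the samples are paired.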

Additional observations from a re-analysis of the deposited data

Results flagged for a closer look

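In 15 of 69 quantities checked in the 8 vehicles of 5 months, 1 library lay apart from the rest by Dixon's criterion. Chance meets this criterion in about 1 of 20 groups of normally distributed values. CPM of genes in the same 8 livers need be neither normal nor independent, so the 15 cannot be set against that rate. Vehicle 4 stood apart for Mtnr1a (22.9 CPM, next 13.4), Kif20a (11.97 CPM, next 3.101), Cdc20 (15.5 CPM, next 3.46) and Gstm3 (161 CPM, next 81.1). Vehicle 6 stood apart for Gpnmb (93.5 CPM, next 28.7), Slc22a26 (26.4 CPM, next 2.47), Epcam (9.92 CPM, next 4.94) and Socs3 (115 CPM, next 22.2). Vehicle 9, the library with the fewest counts, stood apart for Gm45909 (1.23 CPM, next 0.192), Wee1 (6.17 CPM, next 3.22), Pax5 (11.1 CPM, next 2.08), Egr2 (6.995 CPM, next 1.34) and for the number of genes detected (38206, next 24660). Vehicle 8, the only vehicle of batch 2, stood apart for Ngef (23.2 CPM, next 14.1) and Cry2 (36.0 CPM, next 23.5).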

How the results depend on the processing

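The edgeR count of 0 genes called became 78 by DESeq2, 40 by limma-voom with quality weights, 20 without the batch covariate and 1 without the deviating libraries, and leaving out 1 library gave 0 to 3. Without vehicle 5 these were Mtnr1a, Slc16a12 and Frmd5, and without vehicle 9 Gm45909, Mtnr1a and Slc16a12. Alternatives added after seeing the data gave 2 in batch 1 without the deviating libraries and 28 by limma-voom in batch 1. With the mouse number as a replicate block (5 pairs) the count was 0, as it was for the same libraries without the block. The interaction count of 0 became 4 by DESeq2. Gpnmb (-3.20) turned to 0.0723 and Egr2 (-1.75) to 0.34 by limma-voom with quality weights. Leaving out 1 library, Krt19 ran from -0.48 to 2.69 and Epcam from -0.42 to 2.70, the lowest without low-risk 2. The causes were not tested. Batch 2 holds 1 vehicle, so within-batch values exist for batch 1 only.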

Other observations

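The genes that DESeq2 called from few libraries included Fabp6, an ileal bile acid binding protein, with 49, 49 and 68 counts in low-risk 18, 21 and 24, and Guca2b, an intestinal peptide, at 9.38 CPM in low-risk 2 and at 0 counts in the other 23 libraries. Outside vehicles 4, 6 and 9, single low-risk livers also stood beyond the rest of their group: low-risk 2 had 232 genes over 2-fold above every other low-risk liver, low-risk 16 had 144, low-risk 24 had 75 and low-risk 5 had 46, and low-risk 5 had 852 genes over 2-fold below them. B cell marker Pax5 had a fitted log2 difference of -1.48 and its highest level in vehicle 9.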
